A study of Mus musculus with 12 samples.

Results

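A set of 5 miRNAs that lie in introns of protein-coding genes was followed across XBP1 knockout and wild type mouse embryonic fibroblasts (MEFs) exposed to tunicamycin. They were mmu-miR-335-5p (host gene Mest), mmu-miR-224 (Gabre), mmu-miR-361 (Chm), mmu-miR-652 (Tmem164) and mmu-miR-378 (Ppargc1b), called without the species prefix from here on, which are 5 of the 611 mouse miRNAs on the array and 5 of the 256 that were tested. They were found by their names on the array and had been selected on their signals in these same data, which differed by genotype or treatment. The values of these 5 are therefore a description of the data, and no p-value is given for them.

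The 6 groups were XBP1 knockout (KO) MEFs left untreated, KO MEFs given 2 ug/mL tunicamycin for 12 h, KO MEFs given it for 24 h, and wild type (WT) MEFs in the same 3 conditions, all of the C57BL/6 background. Each group had 2 arrays from separate experiments, and the labels do not say how many embryos or clones each genotype came from. XBP1 is a transcription factor that acts in the unfolded protein response, and tunicamycin blocks N-linked glycosylation so that misfolded protein accumulates in the endoplasmic reticulum. The design asked which miRNAs responded to 12 h of tunicamycin in a way that depended on XBP1.

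An intronic miRNA is cut from the primary transcript of the gene that contains it, so it can share that gene's promoter, although some intronic miRNAs have promoters of their own. The mature strand is loaded into Argonaute, and its bases 2 to 8, the seed, pair with target mRNAs. Mest is a paternally expressed imprinted gene of mesodermal tissue, Gabre encodes the epsilon subunit of the GABA-A receptor, Chm encodes Rab escort protein 1, Tmem164 encodes a membrane protein, and Ppargc1b encodes the PGC-1beta coactivator of mitochondrial genes. No host mRNA was measured on these arrays.

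The mature strands, from RefSeq on the build GRCm38.p6, are given because the values that follow belong to these strands; capitals mark the seed. The array names of miR-224, miR-361 and miR-652 give no arm, and the strands printed are those for which the older names stood. The mature strand of miR-378 is named only.
miR-335-5p: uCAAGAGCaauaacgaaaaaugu
miR-335-3p: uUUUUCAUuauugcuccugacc
miR-224: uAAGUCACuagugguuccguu
miR-361: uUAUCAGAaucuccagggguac
miR-652: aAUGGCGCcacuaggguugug

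All 5 printed seeds differed from each other, and each was shared with 0 other mature mouse miRNAs in the RefSeq table. On GRCm38.p6 the miR-335-5p strand lies at chr6:30741314-30741336 on the plus strand within Mest, which is also on the plus strand. The miR-224 strand lies at chrX:72261085-72261105 on the minus strand within Gabre, and the miR-361 strand at chrX:113074867-113074888 on the minus strand within Chm. The miR-652 strand lies at chrX:142739060-142739080 on the plus strand within Tmem164. In each of these 4 cases the miRNA and its host were transcribed in the same direction. Of the 5 members, 3 are on the X chromosome, as are 24 of the 249 tested miRNAs matched to a gene (9.64%).

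The miR-335 hairpin is shown because its arms did not move alike, as described below. Capitals mark the 5p arm and then the 3p arm.
Mir335: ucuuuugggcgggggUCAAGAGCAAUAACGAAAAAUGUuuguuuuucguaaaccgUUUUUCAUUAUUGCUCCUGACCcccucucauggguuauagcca

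Signals are log2 values after scaling: the 75th percentile of the 95 mouse miRNAs that every one of the 12 arrays detected was made equal between arrays. Scaled signals under 10.0 were set to that floor, which is 3.33 on the log2 scale. The unscaled signal of all mouse miRNAs summed to between 35462 and 185591 on the 6 KO arrays and between 14076 and 108000 on the 6 WT arrays, and in each genotype every tunicamycin array had a lower sum than the untreated arrays. Between 120 and 222 mouse miRNAs were detected per array. All untreated arrays were on 1 slide and all tunicamycin arrays on the other, so treatment and slide cannot be told apart. Each of the 4 scans held both genotypes, so that KO and WT arrays with the same replicate number and treatment state were scanned together. Of 11 fibroblast markers, 9 were detected on all 12 arrays, and none of 5 epithelial or 4 blood markers was detected on any. Xbp1 mRNA is not on a miRNA array, so the knockout itself was not checked here.

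miR-335-5p was at the floor on all 6 KO arrays, where the software detected it on none. It had log2 signals of 4.73 and 4.89 on the untreated WT arrays, 3.33 and 3.38 on the WT arrays at 12 h, and 3.33 and 3.58 on those at 24 h. The KO and WT values did not overlap in untreated cells. The members were chosen for such differences. How many of all tested miRNAs separated in this way was not counted, for this or for the other members. The untreated difference, KO minus WT, was -1.48 (SE 0.082), which is at least 2.80-fold lower in KO. In WT cells given tunicamycin for 12 h it was at least 1.88-fold lower than in untreated WT cells. Bounds of this kind are on the group means and leave out the spread between arrays. Floored values are identical, so the standard error of a miRNA close to the floor understates its true error.

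The array carried 2 probes for miR-335-5p, and nearly all of its signal in WT cells came from 1 of them. That brighter probe, A_54_P2688, had scaled signals of 1.24 and 1.27 on the untreated KO arrays, against 24.1 and 27.5 on the untreated WT arrays. At 12 h it had -1.61 and -1.76 in KO and 11.4 on both WT arrays, and at 24 h it had -2.95 and -4.65 in KO and 15.3 and 14.1 in WT. By this probe alone KO and WT did not overlap in any of the 3 conditions, and the share of all probes that did so was not counted. The summed signals of KO and WT met at the floor at 12 h and at 24 h. The dimmer probe, A_54_P2687, was below 0 on all 8 tunicamycin arrays, which lowered the WT sums there.

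miR-335-3p, the other arm of the same hairpin, was not used in choosing the members and could be tested. It was at the floor on both untreated KO arrays, at 6.02 and 5.68 on the KO arrays at 12 h, and at 3.33 and 3.60 on those at 24 h. In WT it had 5.27 and 5.30 untreated, 5.18 and 6.99 at 12 h, and 4.47 and 4.40 at 24 h. In KO cells it was detected on the 12 h arrays only, and the WT arrays at 12 h disagreed with each other.

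At 12 h miR-335-3p rose in KO cells by 2.52 (SE 0.52), at least 5.75-fold higher than in untreated KO cells (limma, Benjamini-Hochberg adjusted p = 0.00609). Such calls were common there: 49.2% of all tested miRNAs passed, 23.8% higher and 25.4% lower. In WT cells the 12 h difference was 0.80 (limma adjusted p = 0.25). The difference between these responses was 1.73 (SE 0.73) and did not pass the threshold (limma adjusted p = 0.345). The 24 h against 12 h comparison lies within 1 slide and within each scan. There miR-335-3p fell in KO by 2.39 (SE 0.52, limma adjusted p = 0.0135), and it was lower in both scans, by -2.69 and -2.08. Of all tested miRNAs, 39.5% passed in that comparison in KO, 17.6% higher and 21.9% lower at 24 h. In WT miR-335-3p differed by -1.65 between 24 h and 12 h (SE 0.52, limma adjusted p = 0.0666), where 21.9% of all tested miRNAs passed, 3.12% higher and 18.8% lower. In untreated cells miR-335-3p was -1.96 (SE 0.52) in KO minus WT, at least 3.89-fold lower, with a limma adjusted p of 0.0509 that was 0.000615 or 0.000522 without the first or the second WT array at 12 h. The 12 h rise in KO was 0.31 with the software's total signal (limma adjusted p = 0.749) and 1.54 without scaling between arrays (limma adjusted p = 0.0884). The later fall in KO, 24 h against 12 h, was -0.31 with that total signal (limma adjusted p = 0.885), -0.05 with normexp background correction (limma adjusted p = 0.936) and -2.10 without scaling (limma adjusted p = 0.113). Without the first KO array at 12 h it had a limma adjusted p of 0.0587, and without the second one 0.0583. Other differences depended on which WT array at 12 h was kept. Without the first of these 2 arrays miR-335-3p rose at 12 h in WT too, by 1.70, and was -1.14 in KO minus WT at 12 h. Without the second, KO minus WT at 12 h was 0.67 and the 12 h responses differed by 2.63. Its 4 probes were alike at 12 h in KO, with scaled signals from 14.0 to 19.2 on the first array and from 10.3 to 15.7 on the second.

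**Figure D1:**
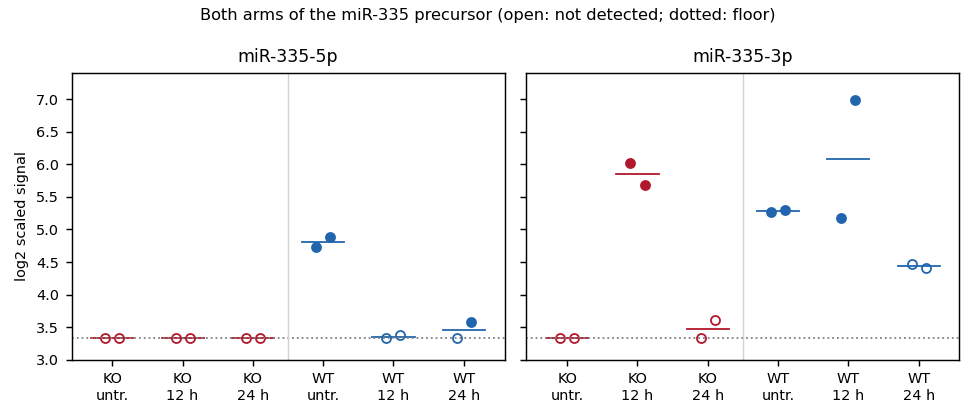
Log2 scaled signal (y axis) of miR-335-5p (left) and miR-335-3p (right) on the 12 arrays by group (x axis); points are arrays, filled where detected, bars are means of 2 arrays and the dotted line is the floor. The 5p arm is at the floor on all 6 KO arrays, while the 3p arm is at 6.02 and 5.68 on the KO arrays at 12 h.

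miR-224 was at or near the floor in KO cells and above it in WT cells. In KO it had 3.33 on both untreated arrays, 3.49 and 3.33 at 12 h, and 3.85 and 3.33 at 24 h. In WT it had 5.24 and 5.43 untreated, 4.50 and 4.32 at 12 h, and 5.50 and 4.68 at 24 h. After scaling, every WT array was above every KO array. Before scaling, the untreated KO arrays had 29.2 and 26.4, more than the WT arrays at 12 h (10.6 and 17.3) and 24 h (12.0 and 17.1). The scale factor was 0.32 on both untreated KO arrays and 1.15 to 3.78 on the WT tunicamycin arrays. Within each condition the WT arrays were above the KO arrays before scaling too. The differences, KO minus WT, were -2.01 in untreated cells, -1.003 at 12 h and -1.50 at 24 h, each with an SE of 0.28. Within the same scan KO minus WT ran from -2.10 to -0.99 over the 6 pairs. The share of all tested miRNAs with 1 direction in all pairs was not counted.

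The software detected miR-224 on 3 arrays only, the first untreated KO array and both untreated WT arrays, so the values under tunicamycin are below its detection call. Of its 4 probes, the 2 brightest carried most of the signal. The brightest, A_54_P2648, had scaled signals of 4.47 and 3.70 on the untreated KO arrays, against 17.4 and 17.6 on the untreated WT arrays. In WT cells the 12 h difference from untreated was -0.92 by the group means, or 1.90-fold lower, and -0.74 and -1.11 between same-numbered arrays. The 24 h difference was -0.24. That 24 h difference rested on 1 array, being 0.17 without the second WT array at 24 h. miR-452, the other miRNA of the Gabre locus, was detected on no array and was not tested.

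**Figure D2:**
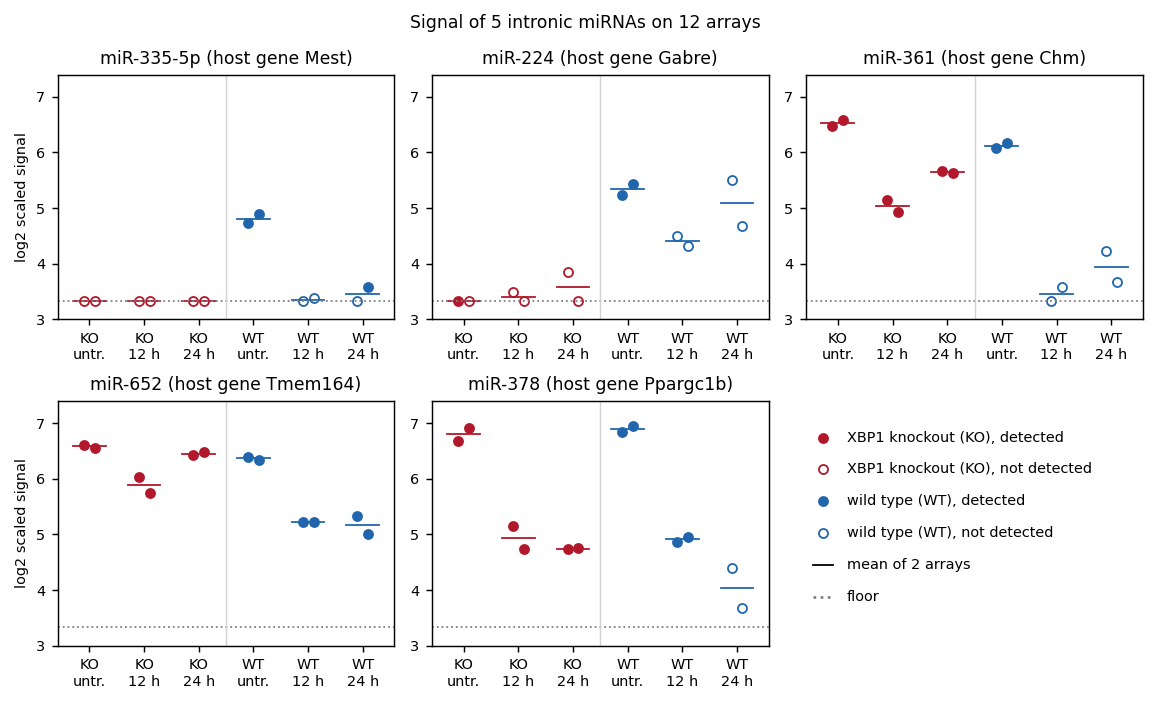
Log2 scaled signal (y axis) of the 5 miRNAs on the 12 arrays by group (x axis); filled points were detected by the software and open points were not, bars are means of 2 arrays, and the dotted line is the floor at 3.33. miR-335-5p and miR-224 are at or near the floor in KO, whereas miR-361 and miR-652 are higher in KO than in WT on the tunicamycin arrays.

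miR-361 spanned 3.25 log2 units over the 12 arrays, next to miR-378 with the widest range of the 5 at 3.29. It had 6.47 and 6.58 on the untreated KO arrays, 5.14 and 4.93 on those at 12 h, and 5.67 and 5.62 on those at 24 h. In WT cells it had 6.08 and 6.17 untreated, 3.33 and 3.59 at 12 h, and 4.22 and 3.67 at 24 h. It was detected on all 6 KO arrays but, in WT, on the untreated arrays only. KO and WT did not overlap in any condition, with KO higher, and the share of all tested miRNAs that separated in this way was not counted.

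Relative to untreated cells, miR-361 differed by -1.49 at 12 h and -0.88 at 24 h in KO and by -2.66 and -2.18 in WT, each with an SE of 0.24. In WT these are at least 4.66-fold lower at 12 h and at least 4.11-fold lower at 24 h. KO minus WT was 0.40 in untreated cells, 1.58 at 12 h and 1.70 at 24 h, at least 2.19-fold higher and at least 2.96-fold higher under tunicamycin. The response at 12 h differed between genotypes by 1.17 (SE 0.34) and at 24 h by 1.30, KO minus WT. Within the same scan KO minus WT ran from 0.39 to 1.96 over the 6 pairs, and the share of all tested miRNAs with 1 direction in all pairs was not counted. Its 2 probes had the same order, the brighter with 51.5 and 53.8 on the untreated KO arrays against 40.4 and 41.2 on the untreated WT arrays, and with 20.3 and 20.4 in KO against 5.88 and 9.10 in WT at 12 h.

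miR-652 was the only member detected on all 12 arrays. It had 6.61 and 6.55 on the untreated KO arrays, 6.02 and 5.74 at 12 h, and 6.42 and 6.48 at 24 h. In WT cells it had 6.39 and 6.33 untreated, 5.22 on both arrays at 12 h, and 5.34 and 5.01 at 24 h. In KO the 24 h values were again close to the untreated ones, whereas in WT both tunicamycin times were low. KO and WT did not overlap in any condition, and here too the share of all tested miRNAs that did so was not counted.

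The miR-652 differences from untreated were -0.70 at 12 h and -0.13 at 24 h in KO and -1.14 and -1.19 in WT, each with an SE of 0.17. KO minus WT was 0.22 in untreated cells, 0.66 at 12 h and 1.28 at 24 h, which is 2.43-fold at 24 h. The 24 h against 12 h difference, which lies within 1 slide, was 0.57 in KO and -0.05 in WT. The response at 24 h was 1.06 (SE 0.24) higher in KO than in WT. Most of this signal came from 1 of its 2 probes, A_54_P2965, with 79.1 and 83.7 in KO against 44.3 and 31.5 in WT at 24 h.

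The direction of most of these miR-652 differences depended on which summary of the spots was used. KO minus WT in untreated cells and at 12 h kept its sign with the summary described next. The authors' deposited table held, to within 1.15e-06, log2 values of a total per miRNA that the scanner software computes. For miR-652 that total equalled the sum of the software's own probe totals, within 1%, on the 4 untreated arrays and on none of the 8 tunicamycin arrays. On the first WT array at 12 h the probe totals summed to 11.5 and the total gene signal was 409.7, a ratio of 35.8. On the first KO array at 12 h the probe totals summed to 25.2 and the total was 495.1, a ratio of 19.7. With the deposited values, scaled in the same way, miR-652 at 12 h was 3.31 in KO and 2.14 in WT relative to untreated, the opposite sign to the sum of probe means. The response at 24 h, KO minus WT, was likewise turned, at -0.48.

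The same check over all detected mouse miRNAs found totals that differed from the sum of probe totals for 52 to 75 miRNAs per array, or 31.1% to 47.5% of those detected. For miR-361 they were equal on all 8 arrays where it was detected. For miR-378 they were unequal on 5 of 10 arrays, with a largest ratio of 4.10. They were unequal on all 3 arrays that detected miR-335-5p and on all 3 that detected miR-224. The cause of these inequalities was not tested.

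**Figure D3:**
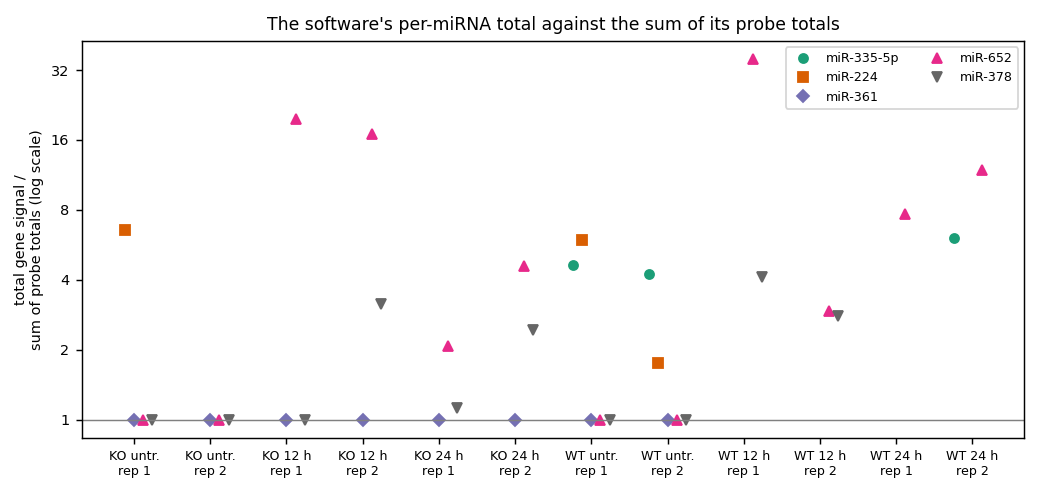
Ratio of the total per miRNA given by the software to the sum of its probe totals (y axis, log scale) on each array (x axis), for arrays that detected the miRNA; the line marks equality. miR-652 lies at 1 on the 4 untreated arrays and above 2 on the 8 tunicamycin arrays, up to 35.8.

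miR-378 was lower with tunicamycin in both genotypes. It had 6.68 and 6.92 on the untreated KO arrays, 5.15 and 4.74 at 12 h, and 4.73 and 4.76 at 24 h. In WT it had 6.85 and 6.96 untreated, 4.86 and 4.96 at 12 h, and 4.40 and 3.67 at 24 h. The untreated arrays were above all tunicamycin arrays in each genotype, and the share of all tested miRNAs that separated in this way was not counted. The differences from untreated were -1.86 at 12 h and -2.06 at 24 h in KO and -1.99 and -2.87 in WT, each with an SE of 0.28. At 24 h in WT, where the software did not detect it, this is at least 7.05-fold lower.

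Between genotypes miR-378 differed little in untreated cells, by -0.10 (SE 0.28), and at 12 h, by 0.03. At 24 h KO minus WT was 0.71 (SE 0.28), with the WT arrays not detected, and within the scans it was 0.33 and 1.09. The dimmer probe had 6.80 and 7.30 on the KO arrays at 24 h, against 0.92 and 0.91 on the WT arrays. The brighter probe overlapped between genotypes there, with 19.7 and 19.8 in KO and 20.2 and 11.8 in WT.

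miR-378*, the other arm of its precursor, was detected on the 4 untreated arrays and on no tunicamycin array. Its scaled signals were 9.61 and 9.93 on the untreated KO arrays, just under the floor, and 10.8 and 11.8 on the untreated WT arrays, just above it. Its 12 h difference in WT was -0.17, with both 12 h arrays at the floor, and it was 0.00 with the floor at the 10th percentile. It was kept for testing through the untreated arrays alone, which fixed the sign of that difference, so no test of it is given.

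**Figure D4:**
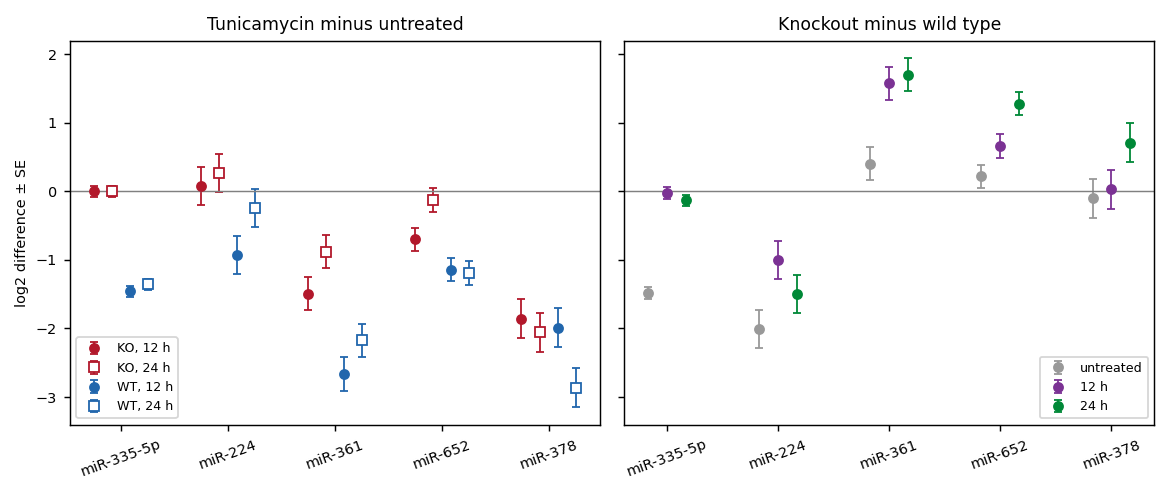
Log2 difference (y axis) with its standard error for the 5 miRNAs (x axis), as tunicamycin minus untreated in each genotype (left) and as KO minus WT in each condition (right). miR-378 is lower with tunicamycin in both genotypes, and miR-361 and miR-652 have positive KO minus WT differences that are larger under tunicamycin.

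Counted by limma's adjusted p under 0.05, 3 of the 5 members passed in KO at 12 h, all lower, where 49.2% of all tested miRNAs passed, 23.8% higher and 25.4% lower. In WT at 12 h 5 passed, all lower, where 50.8% of all passed, 25.4% in each direction. At 24 h 1 passed in KO, lower, where 14.1% passed, 3.12% higher and 10.9% lower. In WT at 24 h 4 passed, all lower, where 17.6% passed, 2.73% higher and 14.8% lower. Between genotypes 2 passed in untreated cells, both lower in KO, where 12.5% passed, 5.08% higher and 7.42% lower. At 12 h 1 passed, higher in KO, where 5.08% passed, 1.56% higher and 3.52% lower. At 24 h 3 passed, 2 higher and 1 lower in KO, where 7.81% passed, 4.69% higher and 3.12% lower. In the response, KO minus WT, miR-335-5p passed at both times, higher. There 5.86% of all passed at 12 h, 2.34% higher and 3.52% lower, and 4.69% at 24 h, 2.73% higher and 1.95% lower. Nothing is read from these counts, since the members were chosen for such differences.

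The direction of the treatment differences changed under the normexp setting, which corrected the background and also added an offset of 50 to every spot before scaling. The parts of the correction and of the offset in this were not told apart. With normexp correction the members' differences at 12 h in WT were between 0.24 and 1.25, beside a median of 1.23 over all tested miRNAs, and 4 of the 5 lay below that median. With the same correction KO minus WT at 12 h was -0.49 for miR-361 and -0.37 for miR-652, beside a median of -0.56 over all tested miRNAs. The response of miR-361, KO minus WT, was then -0.50 at 12 h and -0.20 at 24 h.

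The profiles of the 5 over the 12 arrays, each centred on its own mean, were compared by the root mean square of their differences in log2 units. miR-361 and miR-652 were the closest members at 0.58, and miR-224 and miR-361 the farthest at 1.58. The others compared were 193 miRNAs above the floor on at least 6 arrays. Among them the closest to miR-335-5p was miR-500 at 0.18, followed by miR-484 at 0.34 and miR-101a at 0.36. miR-335-5p was at the floor on 8 of the 12 arrays, and the part of shared floor values in these distances was not tested. The closest to miR-224 were miR-155 at 0.42, miR-129-5p at 0.43 and miR-31 at 0.45. The closest to miR-361 were miR-143 at 0.48, miR-322 at 0.52 and miR-103 at 0.53. The closest to miR-652 were miR-107 at 0.25, miR-103 at 0.28 and miR-199a-3p at 0.32, and those to miR-378 were miR-152 at 0.46, miR-26a at 0.49 and miR-146a at 0.53. miR-500, miR-103, miR-107, miR-152 and miR-26a are themselves intronic miRNAs of the list that follows.

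As a comparison, 91 other miRNAs known to lie in introns were listed by host gene, of which 88 were on the array and 47 were tested. For all 47 the reference annotation placed the miRNA within the named host. The list was not complete. Of the 249 tested miRNAs matched to a gene, 149 (59.84%) lay within the span of a protein-coding gene. The values over all tested miRNAs are therefore not those of miRNAs outside genes. With 12 h of tunicamycin 25 of the 47 passed in KO, 8 higher and 17 lower, and 25 in WT, again 8 higher and 17 lower. Their median difference was -0.47 in KO and -0.43 in WT, beside 0.00 and -0.09 over all tested miRNAs. All arrays compared were above the floor for 13 of the 25 in KO (3 higher and 10 lower) and for 16 of the 25 in WT (3 higher and 13 lower). At 24 h 6 passed in KO, 1 higher and 5 lower, and 12 in WT, all lower, with medians of 0.00 and -0.03 beside 0.00 and 0.00. At 12 h 53.2% of the 47 passed in each genotype, beside 49.2% of all tested miRNAs in KO and 50.8% in WT. At 24 h 12.8% of the 47 passed in KO and 25.5% in WT, beside 14.1% and 17.6% of all.

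The named members of that list include some with large changes at 12 h. miR-152 of Copz2 fell by 2.39 in KO (SE 0.16, limma adjusted p = 4.57e-05), at least 5.09-fold lower, and by 2.29 in WT, at least 4.43-fold lower. miR-425 of Dalrd3 fell by 0.90 in KO, at least 1.82-fold lower, and by 0.73 in WT, at least 1.11-fold lower. miR-103, which has copies in Pank2 and Pank3, fell by 1.55 in KO (SE 0.17). miR-532-3p of Clcn5 fell in WT at 12 h by 0.67, at least 1.07-fold lower. Among those that rose, miR-211 of Trpm1 was at least 11.7-fold higher in KO and at least 12.4-fold higher in WT, and miR-511 of Mrc1 at least 7.88-fold and 7.94-fold higher. miR-483* of Igf2 rose by 4.59 in KO and 4.69 in WT, with 1 of 2 untreated arrays detecting it in each genotype.

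At 24 h miR-152 fell by 1.28 in KO and by 2.68 in WT, which is at least 4.26-fold lower in WT, and the difference between these responses was 1.40 (SE 0.22, limma adjusted p = 0.0125). miR-425 fell by 0.90 in KO and 0.73 in WT, and miR-532-3p by 0.67 in WT, the same sizes as at 12 h. For miR-532-3p the WT arrays were at the floor at both times, so its 24 h value is no separate measure. miR-148b of Copz1 fell by 0.46 in KO, and miR-25 of Mcm7 rose there by 0.65 (SE 0.15, limma adjusted p = 0.0268). miR-25 was above the floor on all arrays compared.

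Between genotypes 6 of the 47 (12.8%) passed in untreated cells, 1 higher and 5 lower in KO, beside 12.5% of all tested miRNAs. miR-532-3p was -0.67, miR-532-5p was -1.21 and miR-362-3p was -1.46 in KO minus WT, all of Clcn5, and miR-148b was 0.41. At 12 h 0 of the 47 passed by limma, beside 5.08% of all tested miRNAs. An unadjusted limma p under 0.05 was found for 2 of the 47 and for 41 of all 256. At 24 h 2 passed (4.26%), beside 7.81% of all tested miRNAs. They were miR-152 at 1.07 (at least 1.40-fold higher in KO) and miR-103 at 0.96 (SE 0.17, limma adjusted p = 0.0155). With scan as a term, since KO and WT arrays of a condition shared scans, 4 passed at 24 h. In the response, KO minus WT, 2 of the 47 (4.26%) passed at 12 h, beside 5.86% of all tested miRNAs. They were miR-532-3p at 0.67 and miR-532-5p at 1.21. In the 24 h response 3 (6.38%) passed, beside 4.69% of all: miR-532-5p at 1.45, miR-532-3p at 0.67 and miR-152 at 1.40. In 0 of these cases were all arrays of the groups compared above the floor. miR-532-3p was above the floor in untreated WT cells alone, and miR-532-5p was at or near it in KO and at it in tunicamycin-treated WT cells. A fall in KO could not be seen for either, and their 12 h values repeat the size of their untreated KO minus WT differences. The floor fixed the sign of every miR-532-3p difference from untreated WT and of its responses, so its calls are not read as tests. Medians of the 47 between genotypes were 0.00 untreated, -0.01 at 12 h and 0.00 at 24 h, beside 0.00, -0.09 and 0.00 over all tested miRNAs.

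Because 3 members lie on the X chromosome, the other X-linked miRNAs were set beside them. Without the members, the 21 X-linked miRNAs had a median KO minus WT difference of 0.00 in each condition, and the 223 others had medians of 0.00 untreated, -0.11 at 12 h and -0.01 at 24 h. Of the markers of other cell types, miR-9 and miR-9*, known from neural cells, were detected on 2 and 3 arrays, all of KO cells, with the neural list of 3 summing to between 0.17 and 48.3 on KO arrays and to 0 on WT arrays. The pluripotent list of 6 summed to between 137 and 202 on the KO arrays and between 144 and 271 on the WT arrays at 12 h, against 23.6 to 23.7 and 28.1 to 30.9 in untreated KO and WT cells. The muscle list of 4 summed to between 58.7 and 77.9 on the KO arrays and between 32.8 and 104 on the WT arrays at 12 h, and to at most 10.6 in every other group. The endothelial list of 2 reached 26.0 on 1 KO array at 24 h and at most 8.05 on any WT array. These sums rest on few miRNAs. Of the muscle list only miR-206 was detected, on 6 arrays, while miR-1, miR-133a and miR-133b never left the floor. Of the pluripotent list miR-294 was detected on 4 arrays and miR-290-5p on 3, and the other 4 on none. Of the endothelial list miR-126-3p was detected on 1 array and miR-126-5p on none. miR-124 of the neural list was detected on no array. The part of other cell types in the differences between genotypes and with treatment was not tested.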

How the data were processed

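Total RNA of 12 MEF samples was labelled with Cy3 and hybridised to 1-colour Agilent miRNA arrays, per the labels' protocols. The intensity of each spot, background-subtracted and with no normalization between arrays, comes from scanner output as deposited. The submitters' processing notes name Agilent Feature Extraction, version 10.7.1.1. The authors' own log2 values, 1 per miRNA, were deposited apart and equal the logarithm of the total per miRNA in that output.

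Processed intensities were averaged over the spots of a probe, without control and outlier spots, and summed over the 1 to 4 probes of a miRNA. Arrays were then scaled, floored and put on the log2 scale as the report states. A miRNA entered the test if both arrays of some group detected it. limma 3.58.1 (R 4.3.3) fitted 1 mean per group over 12 arrays with an intensity trend and 6 residual degrees of freedom, and p-values were adjusted by Benjamini-Hochberg over the 256 miRNAs. The fit was tested on simulated data. A bound ("at least N-fold") sets a detected group's mean against, per array of the undetected group, the higher of its own signal and the lowest detected one. It allows for the limit of detection only and not for the spread between arrays. Alternatives changed the background correction, the scaling, the floor, the filter on dim miRNAs, outlier spots, the trend, the scan and replicate blocks and the arrays included. The normexp correction took median spot and background signals, since mean spot signals were not used here. It added an offset of 50 to every spot.

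The members and lists were chosen with earlier results of these data known. The text names the members, their partner arms, the 3 miRNAs nearest each member's profile and, of the other intronic miRNAs, the 3 with the smallest p in each direction among those past the threshold. Same-numbered KO and WT arrays of a condition shared a scan, and their deviations from the group means correlated at 0.87 untreated, 0.42 at 12 h and 0.52 at 24 h. Across conditions numbers gave no common pairing: over all 15 pairs of groups the correlation ran from -0.55 to 0.87, and 6 pairs were over 0.1. Scan as a term and the replicate block are therefore both among the alternatives. The number of arrays limits the precision, and p-values measure the spread between these samples. Plots used Python 3.11.15, pandas 2.3.3 and matplotlib 3.10.9, and the files were read with data.table (version 1.17.8).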

Additional observations from a re-analysis of the deposited data

Results flagged for a closer look

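The response of miR-335-5p to tunicamycin differed between the genotypes, being 1.46 (SE 0.12) higher in KO than in WT on the log2 scale at 12 h and 1.35 (SE 0.12) higher at 24 h. In KO the miRNA was at the floor on all 6 arrays, untreated ones included, so that no fall could have been seen there, and in WT it fell to the floor or near it. The difference therefore has the size of the untreated difference between the genotypes, -1.48 in KO minus WT. The contrast is one of those by which the miRNA was chosen, and its values are a description.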

How the results depend on the processing

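Floor values limit miR-335-5p, miR-224 and miR-378*, 2 arrays per group limit every value, and untreated and tunicamycin arrays lie on different slides. With the replicate block no count below moved by more than 1.5 times; for example 12 of all miRNAs passed in the 12 h response, against 15 without the block. KO and WT arrays of the same number and condition shared a scan and deviated together (r = 0.87 untreated, 0.42 at 12 h and 0.52 at 24 h). With scan as a term the members past the threshold for KO against WT were 2 untreated, 1 at 12 h and 3 at 24 h, as without it. Over the alternatives apart from left-out arrays, the count over all miRNAs ran from 48 to 196 (126 as reported) at 12 h in KO, from 40 to 192 (130) at 12 h in WT, from 15 to 188 (36) at 24 h in KO, from 16 to 191 (45) at 24 h in WT, from 11 to 49 (32) for KO against WT untreated, from 0 to 26 (13) at 12 h, from 0 to 27 (20) at 24 h, from 0 to 29 (15) for the 12 h response and from 0 to 24 (12) for the 24 h response.

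With normexp background correction and its offset of 50 the median of all miRNAs moved to between 0.89 and 1.23 in the treatment comparisons. In each, 4 of 5 members lay below that median. Signs then turned at 12 h in KO for miR-361 (0.12) and miR-652 (0.29), and at 12 h in WT for miR-335-5p (1.12), miR-224 (1.25), miR-361 (0.61), miR-652 (0.58), miR-378 (0.24) and miR-378* (1.38). At 24 h they turned in KO for miR-378 (0.018) and in WT for miR-335-5p (1.09), miR-361 (0.61), miR-652 (0.57), miR-378 (0.16) and miR-378* (1.30). KO minus WT turned for miR-361 at 12 h (-0.49) and 24 h (-0.20) and for miR-652 at 24 h (-0.058), and the miR-335-5p response at 12 h (-0.34) and 24 h (-0.11). Differences that had not passed the threshold turned too: at 24 h against untreated, miR-361 (0.41) and miR-652 (0.60) in KO and miR-224 (1.24) in WT; in KO minus WT, miR-652 untreated (-0.087) and at 12 h (-0.37) and miR-378 at 12 h (-0.58) and 24 h (-0.37). So did the responses of miR-361 (-0.50 at 12 h, -0.20 at 24 h) and miR-378 (-0.36 and -0.14) and the 12 h response of miR-652 (-0.29). With the total gene signal and equally with the deposited values, miR-652 was 3.31 at 12 h in KO, 2.14 at 12 h in WT, 1.79 at 24 h in WT, -0.32 in KO minus WT at 24 h and -2.002 in KO at 24 h against 12 h. Its 24 h difference in KO was then 1.31 and its 24 h response -0.48, miR-224 was -0.31 in KO at 12 h and 24 h, and miR-378 was -1.07 in KO minus WT at 12 h with a 12 h response of -0.92. The 24 h difference of miR-361 in KO was 0.30 with outlier spots kept, and that of miR-652 in KO was 0.091 with the percentile over all miRNAs. miR-378 in KO minus WT untreated was 0.29 with that percentile and 0.65 without scaling. miR-378* in KO minus WT untreated was 0.11 with the percentile over all miRNAs and 0.54 without scaling. The cause was not tested.

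The member counts were 3 at 12 h in KO, 5 at 12 h in WT, 1 at 24 h in KO, 4 at 24 h in WT, 2, 1 and 3 for KO against WT untreated, at 12 h and at 24 h, and 1 for each response. They changed with quantile normalization (24 h in KO 0; KO against WT 1 untreated, 0 at 12 h, 1 at 24 h), the percentile over all miRNAs (KO against WT 1 untreated, 0 at 12 h) and no scaling (24 h in KO 4; KO against WT 0 at 12 h and 0 at 24 h). With normexp they were 2 at 12 h in WT, 2 at 24 h in KO, 2 at 24 h in WT, 1, 0 and 0 for KO against WT untreated, at 12 h and at 24 h, and 0 for both responses. With the total gene signal or the deposited values they were 3 at 12 h in WT, 1 for KO against WT untreated, 1 at 24 h and 0 for the 12 h response. Keeping outlier spots gave 0 for KO against WT at 12 h and 2 for the 24 h response. A floor at the 10th percentile gave 2 at 24 h in KO and 2 for the 24 h response, and one at the 1st percentile 2 for KO against WT at 12 h. No intensity trend gave 2 at 24 h in KO, 2 for KO against WT at 12 h and 3 for the 24 h response, and a random scan block 2 for the 24 h response. Only miRNAs detected on all arrays left 1 member, and the counts were 1 at 12 h in KO, 1 at 12 h in WT, 0 at 24 h in KO, 1 at 24 h in WT, 0 for KO against WT untreated, 1 at 24 h and 0 for both responses. Only miRNAs above the floor on all arrays, a setting chosen after seeing the data, gave 3 at 12 h in WT, 2 at 24 h in KO, 0 and 2 for KO against WT untreated and at 12 h, and 0 for both responses.

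The other intronic counts were 25 at 12 h in KO, 25 at 12 h in WT, 6 at 24 h in KO, 12 at 24 h in WT, 6, 0 and 2 for KO against WT untreated, at 12 h and at 24 h, and 2 and 3 for the 12 h and 24 h responses. Quantile normalization gave 3 at 24 h in KO. The percentile over all miRNAs gave 3 at 24 h in KO, 4 at 24 h in WT, 3 for KO against WT untreated, 4 at 24 h and 1 for the 12 h response. No scaling gave 39 at 12 h in KO, 37 at 24 h in KO, 31 at 24 h in WT, 11 for KO against WT untreated, 0 at 24 h, 7 for the 12 h response and 6 for the 24 h response. Normexp gave 33 at 24 h in KO, 33 at 24 h in WT, 1 for KO against WT untreated, 1 at 24 h and 0 for both responses. The total gene signal or the deposited values gave 12 at 24 h in KO, 3 for KO against WT untreated, 3 at 12 h and 1 for the 12 h response. A floor at the 10th percentile gave 1 for KO against WT at 24 h and 1 for each response. Only miRNAs detected on all arrays gave 11 at 12 h in KO, 10 at 12 h in WT, 5 at 24 h in WT, 1 for KO against WT untreated and 0 for both responses. No filter on dim miRNAs gave 16 at 12 h in KO and 1 for the 12 h response, and no intensity trend 5 for KO against WT at 24 h. Scan as a term gave 3 at 24 h in KO, 6 at 24 h in WT and 4 for KO against WT at 24 h, and a random scan block 4 for KO against WT at 24 h. Only miRNAs above the floor on all arrays gave 13 at 12 h in KO, 12 at 12 h in WT, 6 at 24 h in WT, 1 for KO against WT untreated and 0 for both responses.

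With each array left out in turn, the members ran from 2 to 3 at 12 h in KO, 4 to 5 at 12 h in WT, 1 to 2 at 24 h in KO, 4 to 4 at 24 h in WT, 2 to 2 untreated, 0 to 3 at 12 h and 2 to 3 at 24 h for KO against WT, 1 to 1 for the 12 h response and 1 to 3 for the 24 h response. The other intronic miRNAs ran from 12 to 29, 19 to 28, 3 to 12, 6 to 17, 3 to 12, 0 to 4, 2 to 15, 0 to 6 and 2 to 13 in the same order. The highest counts of other intronic miRNAs for KO against WT at 24 h (15) and the 24 h response (13) came without the first KO array at 24 h, and the lowest count at 12 h in KO (12) without the second untreated KO array.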
